A study of Mus musculus with 20 samples.

Results

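Mature wild-type mouse oocytes, held in the second meiotic metaphase (MII), were compared with wild-type oocytes at the germinal vesicle (GV) stage, the arrest in first meiotic prophase from which maturation starts. The comparison holds the 4 libraries labelled wild-type MII (2 libraries) and wild-type GV (2 libraries) in the Btg4 experiment, of 20 libraries in the series. Its members are the genes with a mean of at least 1 FPKM (fragments mapped to a gene, scaled by its transcript length and by the depth of the library) at either stage, which are 10067 of 23309 gene symbols. Of these, 7688 passed the level of 1 FPKM at both stages, 1082 at MII alone and 1297 at GV alone. Oocytes at both stages came from ICR females 21 to 23 days old that had been injected with the gonadotropins PMSG and hCG, and each library pooled 60 oocytes. Neither stage carries a transgene or a deletion per the labels, and the hours between injection and collection are not given there. Set beside them are the MII and GV oocytes labelled Btg4-/- (2 libraries each, ICR, prepared alike) and the wild-type MII and GV oocytes of the Erk experiment (1 library each), for which the protocol gives 60 oocytes but the series' design names one oocyte per sample, so that the number behind these 2 libraries is not settled. Whether the libraries of a stage derive from different animals is not stated in the labels, and the p-values therefore measure variation between these preparations, part of which can be technical.

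The fully grown oocyte has all but ceased transcription, and between GV and MII it works with stored maternal mRNA. Deadenylation by the CCR4-NOT complex, which BTG4 brings to translated mRNAs, starts the decay of one set of transcripts, while cytoplasmic polyadenylation through CPEB1 lengthens the tails of dormant mRNAs and recruits them to ribosomes. The MOS-ERK cascade and cyclin B with CDK1 drive both programmes and hold the egg in metaphase until fertilization. FPKM is a relative level. Where mRNA is purified by its poly(A) tail, a longer tail and a larger amount cannot be told apart.

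The libraries held an estimated 5320000 and 6380000 fragments at MII and 5130000 and 3860000 at GV. Replicates correlated at a Pearson r of 0.955 at MII and 0.973 at GV across genes on the log2 scale. The deposited intervals cover counting error only, and the squared difference between replicates was a median of 6.30 times the variance they imply at MII and 2.66 times at GV, so no pair was treated as one library. The MII libraries gave smaller summed levels (357517 and 379914 FPKM) than the GV libraries (470460 and 454592 FPKM), while the ribosomal RNA transcript Rn45s took 5.87% and 4.22% of the sum at MII and 2.17% and 2.37% at GV. Between 8701 and 8711 symbols reached 1 FPKM in an MII library and between 8953 and 8976 in a GV library. All 12 oocyte markers examined were above 0 in all 4 libraries, with summed levels of 9134 and 9671 FPKM at MII and 12590 and 11602 FPKM at GV.

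The wild-type libraries of the Btg4 and Erk experiments carry the same stage labels but differed in rank order. Spearman's rho of levels over the 10067 genes was 0.946 between the MII replicates and 0.964 between the GV replicates. It was 0.63 to 0.66 between MII and GV. Against the Erk-experiment MII library, rho was 0.63 and 0.64 for the MII libraries and 0.43 and 0.44 for the GV libraries. Against the Erk-experiment GV library, it was 0.67 and 0.65 for the MII libraries and 0.60 and 0.59 for the GV libraries, so the GV libraries stood no closer to the GV library of the other experiment than the MII libraries did. Single oocyte genes show the size of the gap. *Zp3*, which encodes a zona pellucida glycoprotein, had 152 and 155 FPKM in the GV libraries and 4768 FPKM in the Erk-experiment GV library, and *Nlrp5*, a maternal effect gene, had 3.38 and 1.36 FPKM against 1172 FPKM. Of the 132 genes that the naming rule chose and that are described and called here, 127 reached 1 FPKM in the Erk pair. There 48 changed by 2-fold or more in the same direction, 51 by 2-fold or more in the opposite direction and 28 by less, so that directions below hold for the Btg4-experiment libraries.

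Of the 10067 genes, 3147 were higher and 3513 lower in MII oocytes at an adjusted p under 0.05, which is 66.2% called in either direction, and 3407 (33.8%) were not called. Values are log2(FPKM + 1), changes are MII minus GV with their standard error (n = 2 libraries a stage), and adjusted p-values come from limma over all 10067 genes. These calls are 31.3% and 34.9% of the genes tested, the background against which each gene group is read. A change of at least 2-fold passed for 2302 higher genes (22.9%) and 2885 lower genes (28.7%). With TPM scaling this order turned, to 3148 higher and 2597 lower genes, and with quantile normalization to 2812 and 2577. In the levels as deposited the falls reached further. At 4-fold or more 742 genes rose and 1310 fell, at 16-fold or more 57 rose and 237 fell, and at 32-fold or more 6 rose and 67 fell. The median change of all genes was -0.07. Both MII libraries lay above both GV libraries for 4090 genes (40.6%) and below them for 4389 genes (43.6%).

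The direction of change moved with transcript length. Among the 2158 genes with a median annotated transcript under 1000 bases, 22.8% were higher and 45.8% lower in MII oocytes, with a median change of -0.64. Among the 1409 genes of 4000 bases or more, 46.8% were higher and 17.6% lower, with a median of 0.61. The classes between them had medians of -0.41 (1000 to 2000 bases) and 0.16 (2000 to 4000 bases). The part of length in the gene groups below was not tested beyond a length-corrected fit, and ribosomal protein, respiratory chain and proteasome genes are mostly short. By level, 27.5% were higher and 28.4% lower among 5795 genes averaging under 10 FPKM, and 36.3% were higher and 48.9% lower among 779 genes at 100 to 1000 FPKM.

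**Figure D1:**
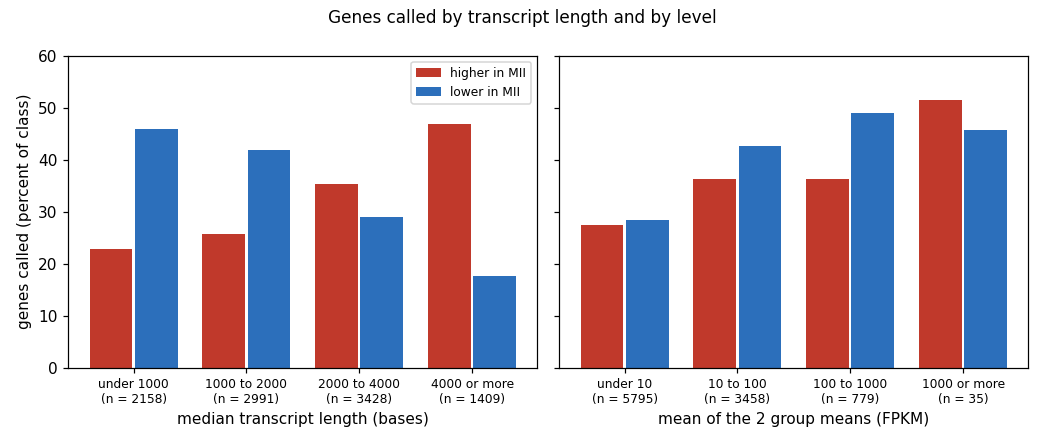
Percent of genes called higher (red) or lower (blue) in wild-type MII than GV oocytes, by median transcript length (left) and by the mean of the 2 stage means in FPKM (right), with the number of genes tested under each class. The share of lower genes falls from 45.8% in the shortest class to 17.6% in the longest, while the share of higher genes is 22.8% in the shortest and 46.8% in the longest.

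The largest rises belonged to single genes of varied function. *Gnas* (chromosome 2, 174109821 to 174172243, mm9), which encodes the stimulatory G protein alpha subunit that keeps cAMP high in arrested oocytes, had 519 and 748 FPKM in MII libraries, against 7.09 and 5.62 FPKM in GV libraries. Both MII libraries stood far above both GV libraries (log2 change 6.41 ± 0.22, adjusted p = 5.15e-11), a 99.8-fold difference of means. In the Erk experiment the order was reversed, with 6.49 FPKM in the MII library and 443 FPKM in the GV library. *Ldhb* (chromosome 6, 142438769 to 142456463, mm9), the lactate dehydrogenase B subunit, had 2830.2 and 2961 FPKM in MII libraries, against 54.1 and 48.3 FPKM in GV libraries (log2 change 5.80 ± 0.14, adjusted p = 2.42e-12), which placed it among the 10 highest genes at MII. *Itpr2*, a receptor for inositol trisphosphate that releases calcium, had 164 and 146 FPKM in MII libraries, against 2.25 and 2.60 FPKM in GV libraries (log2 change 5.51 ± 0.25, adjusted p = 6.51e-10). *Eif2s2*, the beta subunit of the initiation factor eIF2, had 1021 and 1021 FPKM in MII libraries, against 32.9 and 29.6 FPKM in GV libraries, and its MII replicates were nearly identical (log2 change 4.99 ± 0.14, adjusted p = 9.89e-12). *Gstm5*, a glutathione transferase, was at 233 and 188 FPKM in MII libraries and 4.06 and 5.07 FPKM in GV libraries. The other rises among the 10 largest were *Ubxn4*, *Ifitm6*, *Ywhab*, *Arpc1b* and *Tsc22d1*, with changes of 5.20, 4.98, 4.97, 4.95 and 4.93. Genes whose stages overlapped could not enter this set.

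The 10 largest falls were led by ribosomal protein genes. *Rps15* (chromosome 10, 79755176 to 79756859, mm9) had 11.8 and 12.5 FPKM in MII libraries, against 1301 and 1306 FPKM in GV libraries (log2 change -6.64 ± 0.28, adjusted p = 3.26e-10), with replicates close together at both stages, and *Rps20* had 12.6 and 3.07 FPKM in MII libraries, against 735 and 690.2 FPKM in GV libraries. *Ppie*, a spliceosomal peptidyl-prolyl isomerase, had 0.379 and 2.34 FPKM in MII libraries, against 243 and 224 FPKM in GV libraries (log2 change -6.77 ± 0.39, adjusted p = 5.71e-09). *Sssca1* had 4.19 and 1.56 FPKM in MII libraries, against 304 and 276 FPKM in GV libraries, and *Tcl1b3*, of the oocyte-expressed *Tcl1* cluster, had 7.06 and 1.45 FPKM in MII libraries, against 367 and 339.9 FPKM in GV libraries. *Lsmd1* was listed at 0 in one MII library and at 1.46 FPKM in the other, against 205 and 204 FPKM in GV libraries. *Rps27* had 0.278 and 0.156 FPKM in MII libraries, against 229 and 680.0 FPKM in GV libraries, a spread within GV that leaves it with the largest standard error here (log2 change -8.35 ± 1.82, adjusted p = 0.00122). *Rps27*, *Rpl26* and the predicted gene *Gm9846* share sequence with other copies in the genome, between which the authors' quantification can split fragments, so their values are uncertain.

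Genes of the cytosolic ribosome fell as a group. Of 48 large-subunit genes, 43 were lower, 1 was higher and 4 were not called, with a median change of -3.31. Of 33 small-subunit genes, 29 were lower, 3 were higher and 1 was not called, with a median of -3.29. The summed levels of the large subunit were 2876 and 2753 FPKM in MII libraries and 19810 and 18730.1 FPKM in GV libraries. Among the higher genes were *Rps28* (log2 change 0.97 ± 0.18, adjusted p = 0.000392), *Rps15a* (log2 change 0.50) and *Rpl4*. *Rpl4* had 44.03 and 44.5 FPKM in MII libraries, against 32.9 and 33.7 FPKM in GV libraries, a small rise (log2 change 0.40 ± 0.14, adjusted p = 0.0211) whose call ended when any 1 of the 4 libraries was left out (adjusted p = 0.0538 to 0.0762), which left 0 higher large-subunit genes. With the length correction the medians were -2.80 and -2.77. Most of these genes have processed pseudogenes, so values of single members are uncertain.

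The nuclear-encoded genes of mitochondria followed. Of 75 mitochondrial ribosome genes, 59 were lower, 5 higher and 11 not called (median -2.03). *Mrpl12* had 7.88 and 6.67 FPKM in MII libraries, against 189 and 190.1 FPKM in GV libraries (log2 change -4.53 ± 0.26, adjusted p = 5.64e-09), and *Mrpl52* had 0 and 13.9 FPKM in MII libraries, against 107 and 117 FPKM in GV libraries, where the change moved to -2.92 without MII library 1, the library listed at 0. The 5 higher genes were *Mrpl45* (log2 change 1.79 ± 0.33, adjusted p = 0.000349), *Mrps9*, *Mrpl18*, *Mrpl44* and *Mrpl9*; the call of *Mrps9* ended without GV library 2 (adjusted p = 0.0569) or MII library 2 (0.0555). Higher genes of the group numbered 2 without GV library 1, GV library 2 or MII library 2, and 3 without MII library 1. Of 76 oxidative phosphorylation genes, 54 were lower, 11 higher and 11 not called (median -2.12, or -1.60 with the length correction). *Atp5o*, of the ATP synthase stalk, had 3.25 and 6.92 FPKM in MII libraries, against 439 and 432 FPKM in GV libraries (log2 change -6.23 ± 0.44, adjusted p = 4.13e-08), and *Uqcrq*, of complex III, had 19.05 and 36.7 FPKM in MII libraries, against 1707 and 1519 FPKM in GV libraries (log2 change -5.87 ± 0.30, adjusted p = 2.03e-09). Against the group, *Ndufa4* had 447 and 447 FPKM in MII libraries, against 26.5 and 21.1 FPKM in GV libraries (log2 change 4.18 ± 0.27, adjusted p = 2.05e-08) and *Ndufa10*, a complex I subunit, had 116 and 141 FPKM in MII libraries, against 9.47 and 8.84 FPKM in GV libraries (log2 change 3.67 ± 0.17, adjusted p = 8.49e-10).

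**Figure D2:**
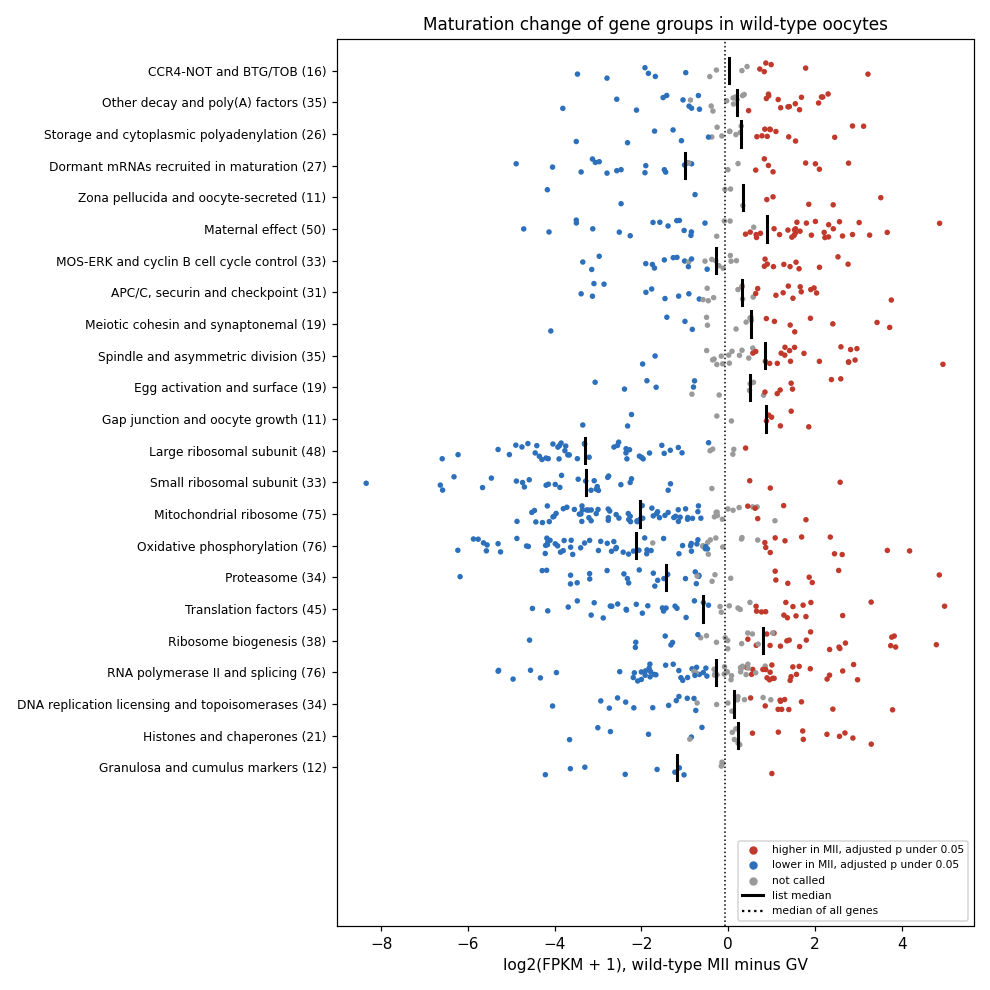
Change of each gene that passed 1 FPKM, as log2(FPKM + 1) in wild-type MII minus GV oocytes, by gene group (number of genes in parentheses); red genes were higher, blue lower and grey not called, bars are group medians and the dotted line is the median of all genes (-0.07). The ribosomal subunit groups have medians of -3.31 and -3.29, while the spindle group (0.86) and the maternal effect group (0.90) lie to the right of the line.

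Proteasome genes were lower more often than higher. Of 34, 23 were lower (background 34.9%), 7 higher (background 31.3%) and 4 not called (median -1.44, range over the alternatives -1.49 to -1.08). The core subunit *Psmb1* (chromosome 17, 15612685 to 15635240, mm9) had 8.59 and 8.501 FPKM in MII libraries, against 724 and 661 FPKM in GV libraries (log2 change -6.18 ± 0.19, adjusted p = 2.49e-11), and *Psmb5*, which carries the chymotrypsin-like site, had 8.18 and 6.56 FPKM in MII libraries, against 159 and 164 FPKM in GV libraries (log2 change -4.29 ± 0.23, adjusted p = 2.8e-09). In the other direction, *Psma7*, an alpha subunit of the core, had 3386 and 5505 FPKM in MII libraries, against 1157 and 1097 FPKM in GV libraries (log2 change 1.94 ± 0.28, adjusted p = 4.76e-05) and was among the 10 highest genes at MII. *Psmd1*, a scaffold subunit of the regulatory particle, had 182 and 193 FPKM in MII libraries, against 4.89 and 6.08 FPKM in GV libraries (log2 change 4.87 ± 0.15, adjusted p = 3.04e-11), and the ATPase gene *Psmc1* had 202 and 374 FPKM in MII libraries, against 44.7 and 47.7 FPKM in GV libraries. The summed level of the group was 5930 and 8325 FPKM in MII libraries and 7216 and 6889 FPKM in GV libraries. *Psma7* alone gave 3386 and 5505 FPKM of the MII sums, so the sums do not follow the group's median. Of 45 translation factors, 24 were lower (background 34.9%), 15 higher (background 31.3%) and 6 not called (median -0.57). An eIF3 subunit and eIF6 were among the falls, *Eif3l* at 2.69 and 3.01 FPKM in MII libraries and 85.9 and 88.03 FPKM in GV libraries and *Eif6* at 62.3 and 64.7 FPKM against 1173 and 1132 FPKM. *Eif5b*, which joins the ribosomal subunits, rose with *Eif2s2* (log2 change 3.29 ± 0.22, adjusted p = 2.1e-08).

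Genes that assemble ribosomes were higher more often than lower. Of 38 ribosome biogenesis genes, 20 were higher (background 31.3%), 7 lower (background 34.9%) and 11 not called (median 0.79). The box C/D snoRNP proteins *Nop58* and *Nop56* led the rises. *Nop58* had 86.5 and 99.5 FPKM in MII libraries, against 2.99 and 1.85 FPKM in GV libraries (log2 change 4.80 ± 0.30, adjusted p = 1.24e-08), and *Nop56* had 180.1 and 462 FPKM in MII libraries, against 18.7 and 19.2 FPKM in GV libraries, with a wide gap between the MII replicates (log2 change 3.86 ± 0.60, adjusted p = 7.42e-05). *Nhp2*, a box H/ACA snoRNP protein, fell, with 2.29 and 4.70 FPKM in MII libraries, against 102 and 104 FPKM in GV libraries (log2 change -4.58 ± 0.29, adjusted p = 1.76e-08). With the length correction the group counted 18 higher and 11 lower genes. In the single wild-type pair of the Erk experiment the group went the other way, with 2 of 36 genes at least 2-fold higher and 25 at least 2-fold lower at MII (median -2.01, against -1.09 for all genes there).

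The deadenylation machinery changed in both directions, in shares near the background of 31.3% higher and 34.9% lower genes. Of 16 CCR4-NOT and BTG/TOB genes above 1 FPKM, 6 were higher, 6 lower and 4 not called, and the median of 0.02 turned sign with scaling, filter and length settings (range -0.32 to 0.33). *Btg4* (chromosome 9, 50924106 to 50927805, mm9), the adaptor gene, had 415 and 406 FPKM in MII libraries, against 1449.6 and 1673 FPKM in GV libraries (log2 change -1.92 ± 0.12, adjusted p = 1.08e-08). The catalytic subunit gene *Cnot7* (chromosome 8, 41577892 to 41601201, mm9) had 70.7 and 81.6 FPKM in MII libraries, against 495 and 575 FPKM in GV libraries (log2 change -2.79 ± 0.13, adjusted p = 6.3e-10), and its paralogue *Cnot8* had 8.04 and 7.44 FPKM in MII libraries, against 97.4 and 95.02 FPKM in GV libraries (log2 change -3.48 ± 0.24, adjusted p = 3.91e-08). Another catalytic subunit gene, *Cnot6l* (chromosome 5, 96504757 to 96591009, mm9), had 249 and 266 FPKM in MII libraries, against 68.5 and 80.1 FPKM in GV libraries (log2 change 1.78 ± 0.16, adjusted p = 5.29e-07). *Cnot4*, which encodes a ubiquitin ligase, rose as well, at 78.9 and 127 FPKM in MII libraries and 8.51 and 11.4 FPKM in GV libraries (log2 change 3.22 ± 0.34, adjusted p = 2.04e-06). *Btg4*, *Cnot7*, *Cnot8*, *Cnot6l* and *Cnot4* were without overlap between stages, as were 40.6% of all genes with MII above GV and 43.6% with MII below. *Cnot6*, also a catalytic subunit gene, was not called. The scaffold genes *Cnot1*, *Cnot2* and *Cnot3* rose by less than 2-fold (log2 changes 0.87, 0.73 and 0.83).

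Among 35 other decay and poly(A) factors, 15 were higher (background 31.3%), 10 lower (background 34.9%) and 10 not called. The median was 0.20, or -0.0025 with the length correction. The paired subunits of the PAN2-PAN3 deadenylase moved apart. *Pan3* had 53.7 and 60.6 FPKM in MII libraries, against 12.1 and 11.5 FPKM in GV libraries (log2 change 2.18 ± 0.21, adjusted p = 1.03e-06), and *Pan2* had 0.685 and 1.36 FPKM in MII libraries, against 10.7 and 11.01 FPKM in GV libraries (log2 change -2.57 ± 0.34, adjusted p = 1.74e-05). The decapping genes moved apart too, *Dcp2*, the catalytic subunit, with 16.1 and 15.3 FPKM in MII libraries, against 7.16 and 8.41 FPKM in GV libraries (log2 change 0.93 ± 0.19, adjusted p = 0.000788), and its activator *Dcp1a* with 43.8 and 51.9 FPKM in MII libraries, against 86.1 and 86.9 FPKM in GV libraries (log2 change -0.85 ± 0.14, adjusted p = 0.000125). The call of *Dcp2* ended with the length correction (log2 change 0.34, adjusted p = 0.096). *Pabpn1l*, an oocyte poly(A)-binding protein gene, had 449 and 457 FPKM in MII libraries, against 1216 and 1209 FPKM in GV libraries (log2 change -1.42 ± 0.15, adjusted p = 2.17e-06). *Paip2*, an inhibitor of poly(A)-binding protein, had 41.1 and 36.8 FPKM in MII libraries, against 539.5 and 581 FPKM in GV libraries (log2 change -3.81 ± 0.13, adjusted p = 5.26e-11), and the exosome nuclease *Exosc10* had 18.03 and 15.9 FPKM in MII libraries, against 4.38 and 1.46 FPKM in GV libraries (log2 change 2.30 ± 0.34, adjusted p = 5.63e-05). *Ythdf2*, *Zfp36l2* and *Pabpc1l* were not called, with log2 changes of -0.39, 0.20 and 0.11, each of which changed sign under at least 1 alternative.

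Of 26 genes of mRNA storage and cytoplasmic polyadenylation, 12 were higher (background 31.3%), 6 lower (background 34.9%) and 8 not called (median 0.29). *Zar1* (chromosome 5, 72968353 to 72972323, mm9), which binds stored mRNA in the oocyte, had 2414 and 2520.2 FPKM in MII libraries, against 344 and 331 FPKM in GV libraries (log2 change 2.87 ± 0.16, adjusted p = 4.5e-09), whereas its paralogue *Zar1l* had 33.9 and 27.6 FPKM in MII libraries, against 353 and 362 FPKM in GV libraries (log2 change -3.50 ± 0.27, adjusted p = 9.49e-08). The cleavage and polyadenylation factor genes *Cpsf2* and *Cpsf4* also moved apart, *Cpsf2* at 55.8 and 69.7 FPKM in MII libraries and 5.75 and 6.85 FPKM in GV libraries, and *Cpsf4* at 7.41 and 11.9 FPKM against 50.5 and 51.6 FPKM. *Cpeb1*, the polyadenylation factor itself, had 117 and 104 FPKM in MII libraries, against 109.9 and 106 FPKM in GV libraries, so that the stages overlapped (log2 change 0.03 ± 0.13, adjusted p = 0.835). *Ybx2*, which encodes the germ-cell mRNA-binding protein MSY2, had 82.00 and 100.2 FPKM in MII libraries, against 112 and 89.9 FPKM in GV libraries, and these overlapped too (log2 change -0.15 ± 0.16, adjusted p = 0.441).

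Genes listed here as dormant mRNAs recruited in maturation were lower at MII more often than higher. Whether each of them is dormant at GV was not tested, and members such as *Gdf9*, *Btg4* and *Cnot7* also stand in other groups. Of 27, 16 were lower (background 34.9%), 8 higher (background 31.3%) and 3 not called, with a median of -1.01. *Plat* (chromosome 8, 23868216 to 23893320, mm9), which encodes tissue-type plasminogen activator, had 27.5 and 27.7 FPKM in MII libraries, against 848 and 843 FPKM in GV libraries (log2 change -4.89 ± 0.17, adjusted p = 6.93e-11). *Orc6*, of the origin recognition complex, had 15.8 and 18.2 FPKM in MII libraries, against 280.4 and 314 FPKM in GV libraries (log2 change -4.05 ± 0.18, adjusted p = 5.08e-10), and *Ccnb1*, cyclin B1, had 304 and 345 FPKM in MII libraries, against 648 and 657 FPKM in GV libraries (log2 change -1.01 ± 0.11, adjusted p = 3.28e-06). *Wee2*, an oocyte kinase that inhibits CDK1, had 31.7 and 21.4 FPKM in MII libraries, against 73.2 and 74.8 FPKM in GV libraries (log2 change -1.47 ± 0.19, adjusted p = 1.57e-05). The rises were in *Tpx2*, *Kif11*, *Tet3*, *Cnot6l*, *Gdf9*, *Dcp2*, *Ccnb2* and *Bub1b*. *Tet3* (chromosome 6, 83312368 to 83391672, mm9), the dioxygenase that oxidises 5-methylcytosine in the zygote, had 68.6 and 70.2 FPKM in MII libraries, against 19.08 and 14.2 FPKM in GV libraries (log2 change 2.01 ± 0.18, adjusted p = 3.47e-07), and the spindle assembly factor gene *Tpx2* had 14.2 and 12.7 FPKM in MII libraries, against 1.59 and 0.724 FPKM in GV libraries (log2 change 2.77 ± 0.28, adjusted p = 1.44e-06). The rise of *Ccnb2* (71.2 and 74.2 FPKM in MII libraries, 42.4 and 38.4 FPKM in GV libraries) was not called without GV library 2 (adjusted p = 0.0732) or MII library 2 (0.0616).

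**Figure D3:**
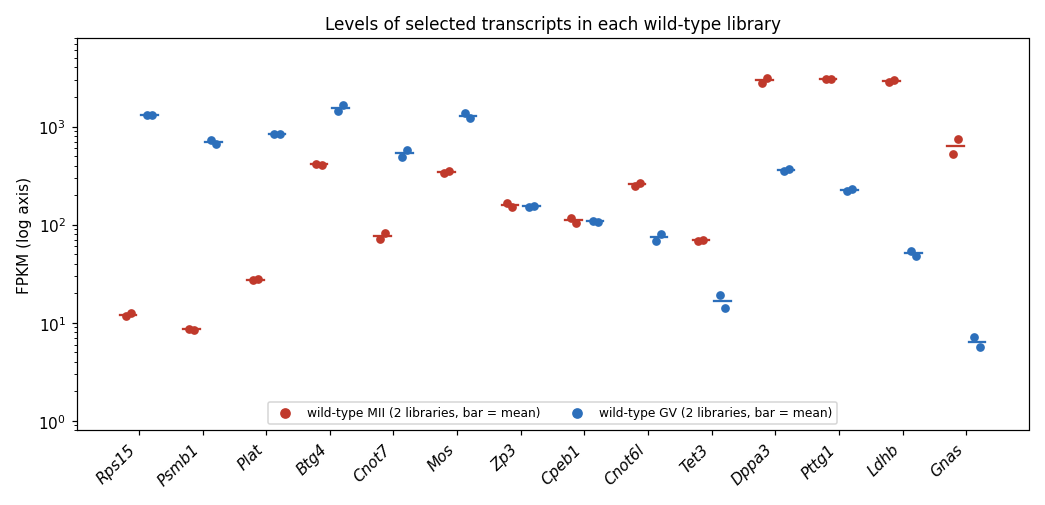
FPKM on a log axis in each wild-type library for 14 genes, MII libraries in red to the left and GV libraries in blue to the right for each gene; points are libraries and bars are means of 2. Replicates lie close together, *Rps15* and *Psmb1* are lowest at MII relative to GV, *Zp3* and *Cpeb1* overlap between stages, and *Gnas* has 519 and 748 FPKM in MII libraries against 7.09 and 5.62 FPKM in GV libraries.

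The cytoplasmic polyadenylation element (CPE), TTTTAT or TTTTAAT at the DNA level, acts together with the polyadenylation signal AATAAA near the end of the 3′ untranslated region. Sites in 3 genes that fell (*Dcp1a*, *Wee2*, *Cdc20*) and 3 genes that rose (*Pan3*, *Tet3*, *Gdf9*) show the element in both directions of change, each in 30 bases of the sense strand from the GENCODE M21 transcript (GRCm38), with both elements in capitals. In *Dcp1a*, *Pan3* and *Tet3* the element TTTTAAT overlaps the signal.
Dcp1a: aaatatatttTTTTAATAAAatttcaaaac
Wee2: tcattgtaAATAAAgaTTTTATcttatcca
Cdc20: TTTTATTTTATtttttctAATAAAgttcgt
Pan3: tagcagtattTTTTAATAAAgaattgcaga
Tet3: attgtgggtgTTTTAATAAATTTTATattt
Gdf9: gtggTTTTATgtgacggaagAATAAActgt

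Elements of this kind stood in genes that rose and in genes that fell. Counted were 7335 genes with a 3′ untranslated region of at least 100 bases and AATAAA or ATTAAA in its last 40 bases. A transcript with such a signal was taken where the gene had one, and *Cdc20* (62 bases) was left out. TTTTAT or TTTTAAT (sense strand, overlap with the signal allowed) was present in the last 100 bases of 20.8%. The share was 19.1% of 2566 higher genes, 23.0% of 2313 lower genes and 20.5% of 2456 genes not called. The median length of the 3′ untranslated region was 1143.5 bases for higher genes and 753 bases for lower genes. No match in this window says only that these letters are not in it, and *Plat*, *Btg4* and *H1foo* each hold 1 element there too.

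Regulators of the meiotic cell cycle also went both ways, in shares near those of all genes (31.3% higher and 34.9% lower). Of 33 genes of the MOS-ERK pathway and of cyclin B control, 11 were higher, 13 lower and 9 not called (median -0.29, or 0.02 with TPM scaling). *Mos* (chromosome 4, 3797805 to 3799252, mm9), the kinase that activates ERK in oocytes, had 333 and 355 FPKM in MII libraries, against 1365 and 1214 FPKM in GV libraries (log2 change -1.90 ± 0.22, adjusted p = 4.97e-06). *Cdk1* had 3.42 and 2.08 FPKM in MII libraries, against 32.6 and 30.8 FPKM in GV libraries (log2 change -3.15 ± 0.24, adjusted p = 9.48e-08) and *Cdk2* had 3.23 and 2.23 FPKM in MII libraries, against 32.7 and 41.3 FPKM in GV libraries (log2 change -3.35 ± 0.21, adjusted p = 1.13e-08). The phosphatase gene *Cdc25b*, whose product releases CDK1 from inhibition at meiotic resumption, had 14.4 and 10.4 FPKM in MII libraries, against 1.11 and 0.800 FPKM in GV libraries (log2 change 2.76 ± 0.22, adjusted p = 1.19e-07), while *Cdc25c* fell (log2 change -1.70). *Pde3a*, the phosphodiesterase that lowers cAMP in the oocyte, had 39.8 and 36.5 FPKM in MII libraries, against 4.90 and 6.76 FPKM in GV libraries (log2 change 2.53 ± 0.23, adjusted p = 5.82e-07), a change that was 1.39 with the length correction. *Mapk3*, which encodes ERK1, was higher by 1.63.

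The group of the anaphase-promoting complex (APC/C), securin and the spindle checkpoint held 31 genes. Of these, 13 were higher (background 31.3%), 10 lower (background 34.9%) and 8 not called (median 0.32, or -0.06 with the 5 FPKM filter). *Pttg1* (chromosome 11, 43233750 to 43239750, mm9), securin, had 3049 and 3022 FPKM in MII libraries, against 218 and 228 FPKM in GV libraries (log2 change 3.76 ± 0.20, adjusted p = 3.67e-09) and joined the 10 highest genes at MII, as did *Ube2s*, the ubiquitin-conjugating enzyme of the APC/C, at 2496 and 2561 FPKM in MII libraries and 1078 and 984 FPKM in GV libraries. The APC/C activator *Cdc20* had 8.87 and 10.7 FPKM in MII libraries, against 93.8 and 92.6 FPKM in GV libraries (log2 change -3.13 ± 0.23, adjusted p = 5.67e-08). *Fbxo43*, which encodes the APC/C inhibitor EMI2 of the metaphase arrest, had 2.08 and 0.507 FPKM in MII libraries, against 21.3 and 21.9 FPKM in GV libraries (log2 change -3.39 ± 0.33, adjusted p = 1.07e-06). *Incenp*, of the chromosomal passenger complex, had 10.1 and 12.1 FPKM in MII libraries, against 1.19 and 2.91 FPKM in GV libraries (log2 change 2.04 ± 0.29, adjusted p = 3.42e-05).

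Spindle and cortical genes were mostly higher. Of 35, 20 were higher (background 31.3%), 2 lower (background 34.9%) and 13 not called (median 0.86, range over the alternatives 0.75 to 1.28). *Arpc1b*, a subunit of the actin-nucleating Arp2/3 complex, had 155 and 225 FPKM in MII libraries, against 3.66 and 6.94 FPKM in GV libraries (log2 change 4.95 ± 0.30, adjusted p = 8.83e-09). *Fmn2*, the formin needed to position the meiotic spindle, had 16.6 and 19.2 FPKM in MII libraries, against 1.21 and 1.64 FPKM in GV libraries (log2 change 2.97 ± 0.23, adjusted p = 9.66e-08). The lower genes were *Spire2*, an actin nucleator, at 0.939 and 0.562 FPKM in MII libraries and 6.40 and 5.31 FPKM in GV libraries, and the beta-tubulin gene *Tubb5*, at 10.4 and 12.7 FPKM against 40.6 and 37.9 FPKM. Of 26 meiotic cohesin and synaptonemal genes, 7 stayed under 1 FPKM at both stages, among them *Rec8*, which was listed at 0 in all 4 libraries. Of the 19 others, 8 were higher (background 31.3%), 4 lower (background 34.9%) and 7 not called (median 0.53). *Sycp3*, of the synaptonemal axis, had 36.7 and 50.9 FPKM in MII libraries, against 2.49 and 2.22 FPKM in GV libraries (log2 change 3.72 ± 0.31, adjusted p = 2.04e-07), the cohesin ring gene *Smc3* had 24.4 and 27.5 FPKM in MII libraries, against 1.38 and 1.62 FPKM in GV libraries (log2 change 3.43 ± 0.31, adjusted p = 5.59e-07), and its meiotic partner *Smc1b* had 3.97 and 3.31 FPKM in MII libraries, against 0.295 and 0.196 FPKM in GV libraries (log2 change 1.89 ± 0.34, adjusted p = 0.000244). *Tex12*, of the central element, had 4.50 and 6.62 FPKM in MII libraries, against 106 and 113 FPKM in GV libraries (log2 change -4.09 ± 0.31, adjusted p = 9.25e-08). The group had 2 lower genes without GV library 2 or MII library 1. With the length correction the group's median was -0.0026, and with the 5 FPKM filter 6 genes of it were tested (4 higher, 1 lower).

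Zona pellucida and oocyte-secreted genes gave 5 higher (background 31.3%), 3 lower (background 34.9%) and 3 not called of 11 (median 0.34). *Bmp15* (chromosome X, 5891224 to 5897841, mm9), an oocyte growth factor that acts on cumulus cells, had 1594 and 1648 FPKM in MII libraries, against 291 and 314 FPKM in GV libraries (log2 change 2.42 ± 0.13, adjusted p = 3.59e-09), and its relative *Gdf9* had 1894 and 2023 FPKM in MII libraries, against 1005 and 909 FPKM in GV libraries (log2 change 1.03 ± 0.12, adjusted p = 4.95e-06). *Astl*, which encodes the cortical granule protease ovastacin, had 448 and 469 FPKM in MII libraries, against 39.3 and 38.99 FPKM in GV libraries (log2 change 3.52 ± 0.18, adjusted p = 2.67e-09). *Kit*, the oocyte's receptor for KIT ligand, had 71.6 and 86.9 FPKM in MII libraries, against 20.9 and 21.1 FPKM in GV libraries (log2 change 1.86 ± 0.17, adjusted p = 4.77e-07). *Fgf8* had 13.9 and 19.5 FPKM in MII libraries, against 344 and 286 FPKM in GV libraries (log2 change -4.17 ± 0.20, adjusted p = 1.05e-09) and *Oosp1*, a secreted oocyte protein gene, had 1418 and 1409.7 FPKM in MII libraries, against 8215 and 7480.1 FPKM in GV libraries (log2 change -2.47 ± 0.13, adjusted p = 2.31e-09). *Zp2* fell by less than 2-fold, with 74.6 and 55.9 FPKM in MII libraries, against 111 and 109.7 FPKM in GV libraries (log2 change -0.77 ± 0.14, adjusted p = 0.000254). *Zp3* had 166 and 153 FPKM in MII libraries, against 152 and 155 FPKM in GV libraries, and *Zp1* had 145 and 124 FPKM in MII libraries, against 152 and 131 FPKM in GV libraries; neither was called (log2 change 0.05 ± 0.15, adjusted p = 0.755 for *Zp3*, log2 change -0.08 ± 0.17, adjusted p = 0.713 for *Zp1*). *Zp3* passed as higher with TPM scaling (adjusted p = 0.0157), the length correction (0.0115) and quantile normalization (0.00808).

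The maternal effect list holds genes whose products the embryo inherits, and also germ cell transcription factor genes and *Obox* genes. Its genes were higher more often than lower. Of 50, 30 were higher (background 31.3%), 16 lower (background 34.9%) and 4 not called, with a median of 0.90. *Dppa3* (chromosome 6, 122576442 to 122580289, mm9), which protects the maternal genome from demethylation, had 2792 and 3119 FPKM in MII libraries, against 354 and 373 FPKM in GV libraries (log2 change 3.02 ± 0.10, adjusted p = 4.64e-11). *Npm2*, the nucleoplasmin that remodels sperm chromatin, had 317 and 372 FPKM in MII libraries, against 55.7 and 58.9 FPKM in GV libraries (log2 change 2.56 ± 0.16, adjusted p = 1.17e-08). *Nlrp9a* had 148 and 173 FPKM in MII libraries, against 3.55 and 5.67 FPKM in GV libraries (log2 change 4.87 ± 0.21, adjusted p = 3.79e-10), and *Nlrp5*, of the subcortical maternal complex, had 40.5 and 39.2 FPKM in MII libraries, against 3.38 and 1.36 FPKM in GV libraries (log2 change 3.67 ± 0.29, adjusted p = 1.28e-07). *Nlrp9a* belongs to a family of near-identical copies, so its values are uncertain. *Ooep* and *Khdc3*, of the same complex, fell. *Ooep* had 184 and 172 FPKM in MII libraries, against 548 and 519.8 FPKM in GV libraries (log2 change -1.58 ± 0.13, adjusted p = 1.38e-07) and *Khdc3* had 105 and 119 FPKM in MII libraries, against 206 and 201 FPKM in GV libraries (log2 change -0.86 ± 0.18, adjusted p = 0.000823), whereas *Tle6* rose by 0.65 and *Padi6* by 1.66. The call of *Khdc3* ended with quantile normalization (adjusted p = 0.0512). *Tcl1* had 71.97 and 74.5 FPKM in MII libraries, against 2002 and 1895 FPKM in GV libraries (log2 change -4.71 ± 0.16, adjusted p = 5.15e-11), and *Dppa5a* had 104 and 137 FPKM in MII libraries, against 2187 and 2036 FPKM in GV libraries (log2 change -4.13 ± 0.18, adjusted p = 4.83e-10). The germ cell transcription factor genes *Figla*, *Lhx8*, *Sohlh1*, *Sohlh2* and *Nobox*, which drive oocyte growth, all fell (log2 changes -1.73, -1.19, -1.02, -1.13 and -0.54).

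Genes of the egg surface and of activation went both ways, near the background shares of 31.3% higher and 34.9% lower. Of 19 above 1 FPKM, 7 were higher, 6 lower and 6 not called (median 0.51, -0.27 with the length correction). The surface protein genes *Cd9* and *Folr4* fell. *Cd9*, the tetraspanin needed for fusion with sperm, had 45.2 and 34.1 FPKM in MII libraries, against 232 and 191 FPKM in GV libraries (log2 change -2.39 ± 0.28, adjusted p = 6.74e-06), and *Folr4*, which encodes the sperm receptor JUNO, had 41.99 and 47.6 FPKM in MII libraries, against 156 and 132 FPKM in GV libraries (log2 change -1.66 ± 0.17, adjusted p = 1.36e-06). *Orai1*, a calcium entry channel, had 15.3 and 16.9 FPKM in MII libraries, against 152 and 133 FPKM in GV libraries (log2 change -3.07 ± 0.20, adjusted p = 1.77e-08). Among calcium signalling genes, *Rcan1*, a calcineurin regulator, rose, at 23.2 and 23.6 FPKM in MII libraries and 3.39 and 2.73 FPKM in GV libraries (log2 change 2.59 ± 0.19, adjusted p = 6.5e-08), *Ppp3ca*, a calcineurin catalytic subunit, at 5.57 and 7.60 FPKM against 0.665 and 0.253 FPKM, and the calcium release channel *Itpr1* at 4.28 and 2.28 FPKM against 0.467 and 0.516 FPKM. Among 11 gap junction and oocyte growth genes, 6 were higher, 3 lower and 2 not called (median 0.88, or -0.62 with the 5 FPKM filter; 4 higher and 5 lower with the length correction). *Gja4*, the connexin 37 gene of the oocyte's side of the junction, had 159 and 145 FPKM in MII libraries, against 1626 and 1504 FPKM in GV libraries (log2 change -3.35 ± 0.19, adjusted p = 5.64e-09). *Gja1*, the connexin 43 gene of the somatic side, had 1.19 and 0 FPKM in MII libraries, against 7.03 and 5.79 FPKM in GV libraries. *Pik3ca*, of the pathway that controls growth, was higher by 1.45, a change that was 0.64 with the length correction.

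Somatic cell markers moved in step with stage. Of 22 granulosa and cumulus markers, 12 passed 1 FPKM; 8 of these were lower, 1 (*Ptx3*) higher and 3 not called. The summed level of the 22 was 14.9 and 10.2 FPKM in MII libraries and 88.6 and 98.5 FPKM in GV libraries. *Inha*, an inhibin subunit gene of granulosa cells, had 2.46 and 0.834 FPKM in MII libraries, against 43.7 and 48.02 FPKM in GV libraries (log2 change -4.22 ± 0.32, adjusted p = 9.05e-08), and *Amh*, *Amhr2*, *Foxl2* and *Hsd17b1* were listed at 0 in both MII libraries. *Has2*, *Pgr*, *Areg* and *Ereg* were listed at 0 in all 4 libraries. The part of follicle cells in the fall of *Gja1* and other genes was not tested. Fewer follicle cells and less RNA per cell cannot be told apart in these libraries. Of 10 blood markers, 3 passed 1 FPKM, and the sum of the 10 was 85.0 and 50.3 FPKM in MII libraries and 2.45 and 0.74 FPKM in GV libraries. *Hba-a1* had 66.1 and 44.5 FPKM in MII libraries, against 1.58 and 0.647 FPKM in GV libraries (log2 change 4.74 ± 0.47, adjusted p = 1.08e-06), with 1.15 and 0 FPKM in the Btg4-/- MII libraries, while *Ptprc* was listed at 0 in all 4 libraries. The part of blood RNA in other rises was not tested. Of 11 sperm markers, 2 passed, and *Prm2* alone was called, as lower (log2 change -1.44 ± 0.55, adjusted p = 0.0325), a call that ended under 6 alternatives.

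Of 76 RNA polymerase II and splicing genes, 22 were higher, 33 lower and 21 not called (median -0.28). The background for the groups of this paragraph was 31.3% higher and 34.9% lower genes. The snRNP genes *Snrpc* and *Snrpd2* fell, *Snrpc* with 13.6 and 5.44 FPKM in MII libraries, against 374 and 391 FPKM in GV libraries and *Snrpd2* with 11.2 and 12.9 FPKM in MII libraries, against 563 and 462 FPKM in GV libraries. *Prpf6* and *Sf3b1*, of the U5 and U2 particles, rose (log2 change 2.98 ± 0.28, adjusted p = 6.03e-07 for *Prpf6* and log2 change 2.89 ± 0.29, adjusted p = 1.16e-06 for *Sf3b1*). Of 34 replication licensing and topoisomerase genes, 11 were higher, 13 lower and 10 not called (median 0.13), in shares near that background. With quantile normalization 17 were higher and 11 lower. *Top1*, which encodes topoisomerase I, had 103 and 119 FPKM in MII libraries, against 6.68 and 7.497 FPKM in GV libraries (log2 change 3.79 ± 0.18, adjusted p = 9.27e-10), and the licensing inhibitor gene *Gmnn* had 3.80 and 8.96 FPKM in MII libraries, against 52.4 and 51.5 FPKM in GV libraries (log2 change -2.94 ± 0.27, adjusted p = 5.73e-07). Of 21 histone and chaperone genes, 9 were higher, 6 lower and 6 not called (median 0.23). The chaperone genes *Nasp* and *Nap1l4* rose, *Nasp* with 32.6 and 37.5 FPKM in MII libraries, against 2.74 and 2.59 FPKM in GV libraries and *Nap1l4* with 230.0 and 241 FPKM in MII libraries, against 34.02 and 28.7 FPKM in GV libraries, and the variant histone genes *H2afx* (log2 change -3.01 ± 0.36, adjusted p = 7.94e-06) and *H2afj* (log2 change -3.66 ± 0.28, adjusted p = 1.11e-07) fell. *H1foo*, the oocyte linker histone, had 175 and 199.8 FPKM in MII libraries, against 338 and 337 FPKM in GV libraries (log2 change -0.85 ± 0.20, adjusted p = 0.00216), a call that ended with the length correction (adjusted p = 0.14) and quantile normalization (0.0745).

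The most abundant transcripts changed place between stages. At GV they included *Gm97* at 418 and 477 FPKM in MII libraries and 9445 and 9456 FPKM in GV libraries, *Rfpl4* at 314 and 331 FPKM against 5787 and 5968 FPKM, and *Omt2b* at 38.6 and 36.04 FPKM against 2598 and 2525 FPKM. *Colec12*, a scavenger receptor gene, had 150.5 and 104 FPKM in MII libraries, against 5289.8 and 5132 FPKM in GV libraries (log2 change -5.37 ± 0.14, adjusted p = 4.99e-12). *Bcl2l10*, an anti-apoptotic gene of the oocyte, had 535 and 598 FPKM in MII libraries, against 4999 and 4735 FPKM in GV libraries (log2 change -3.10 ± 0.12, adjusted p = 2.28e-10). *Trappc9* and *Intu* fell by 5.23 and 4.98 on the log2 scale. At MII the leaders included *Zbed3*, at 5564 and 6301 FPKM in MII libraries and 1763 and 1634 FPKM in GV libraries, *Khdc1b* at 3919 and 3954 FPKM against 376 and 377 FPKM, and the peroxiredoxin gene *Prdx1* at 2490.4 and 2488 FPKM against 344 and 337 FPKM. *Lars2*, the mitochondrial leucyl-tRNA synthetase gene, had 5749 and 4378 FPKM in MII libraries, against 2583 and 2525 FPKM in GV libraries (log2 change 0.97 ± 0.20, adjusted p = 0.000648). *Rn45s* was the highest entry at both stages, with 20984 and 16014 FPKM in MII libraries, against 10231 and 10765 FPKM in GV libraries (log2 change 0.80 ± 0.20, adjusted p = 0.0036), and its call ended without MII library 1 (adjusted p = 0.0554). Like *Rn45s*, *Lars2* was highest in MII library 1, and the part of ribosomal RNA fragments in its value was not tested. The 10 highest symbols took 14.9% and 13.3% of the summed FPKM in MII libraries and 12.2% and 12.2% in GV libraries.

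The change from GV to MII was also measured in oocytes labelled Btg4-/-, in other libraries. *Btg4* itself stood at 172 and 191 FPKM in the MII libraries and 1979.8 and 1881 FPKM in the GV libraries with this label, no lower at GV than in wild type (1449.6 and 1673 FPKM), so that gene-level FPKM checks the label only in part and the libraries are named by it. Over the 10067 genes the difference between the changes (Btg4-/- minus wild type) was called for 5223 (51.9%), higher for 32.1% and lower for 19.8%. The median change of all genes was 0.19 in Btg4-/- oocytes, against -0.07 in wild type. Btg4-/- MII libraries summed to 477225 and 472082 FPKM, against 357517 and 379914 FPKM in wild-type MII libraries. Calls of the difference were not counted with TPM scaling or quantile normalization. For the 2885 genes that fell by 2-fold or more in wild type, the median change was -0.46 in Btg4-/- oocytes, against -1.89 in the wild-type libraries that chose them. For the 2302 that rose by 2-fold or more it was 0.69, against 1.65 in the wild-type libraries. Both sets were chosen on the wild-type values, so the wild-type medians are a description and no test. By gene group, in lists chosen with earlier results of these data known, the difference was called as higher in Btg4-/- for 38 of 48 large-subunit ribosomal genes, 24 of 33 small-subunit genes, 54 of 75 mitochondrial ribosome genes, 55 of 76 oxidative phosphorylation genes and 20 of 34 proteasome genes. *Psmb1*, with 479 and 458 FPKM in Btg4-/- MII libraries and 948 and 872 FPKM in Btg4-/- GV libraries, differed by 5.23 ± 0.27 (adjusted p = 1.28e-08). Differences as lower were called for 15 of 35 spindle genes, 15 of 27 genes of the dormant mRNA list and 11 of 21 histone and chaperone genes.

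Transcripts that rose in wild-type oocytes showed both patterns in Btg4-/- oocytes. *Top1* was at 4.29 and 3.87 FPKM in Btg4-/- MII libraries and 6.34 and 5.84 FPKM in Btg4-/- GV libraries, a difference of -4.27 ± 0.25 (adjusted p = 4.15e-08). *Cnot6l* (25.4 and 31.1 FPKM at MII, 74.1 and 65.1 FPKM at GV), *Tet3* (5.88 and 6.08 and 9.24 and 8.24 FPKM) and *Kit* (8.66 and 9.13 and 13.5 and 13.9 FPKM) were not higher at MII in the Btg4-/- libraries, with differences of -3.06 ± 0.23 (adjusted p = 2.77e-07), -2.49 ± 0.25 (adjusted p = 3.01e-06) and -2.43 ± 0.24 (adjusted p = 2.38e-06). For *Dppa3*, *Bmp15* and *Ldhb* the changes were 3.14, 2.43 and 6.03 in Btg4-/- oocytes, and the differences of 0.12 ± 0.14, 0.02 ± 0.18 and 0.23 ± 0.19 were not called (adjusted p = 0.49, 0.95 and 0.33). Falls in wild type showed both patterns as well. *Plat* and *Omt2b* fell in both genotypes, with log2 changes of -3.99 and -4.96 in Btg4-/- oocytes. *Khdc3* was at 2139 and 2187 FPKM in Btg4-/- MII libraries and 125 and 124 FPKM in Btg4-/- GV libraries, a difference of 4.97 ± 0.25 (adjusted p = 1.26e-08).

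The wild-type MII and GV libraries of the Erk experiment allow a second reading without replicates. Over 8794 genes at 1 FPKM or more in either, 1955 (22.2%) were at least 2-fold higher and 4516 (51.4%) at least 2-fold lower at MII, with a median change of -1.09. Pearson's r between the changes of the 2 experiments across these genes, which are not independent replicates, was 0.19. Of the called higher genes that reached 1 FPKM there, 1154 of 2983 (38.7%) were also higher, against 35.1% of all genes. Of the called lower genes, 2111 of 2988 (70.6%) were also lower, against 64.9% of all genes, so that both shares lay near the background. The ribosomal groups had medians of -3.09 (large subunit) and -3.44 (small subunit) in the Erk experiment, where 41 of 46 and 28 of 32 genes were at least 2-fold lower. Mitochondrial ribosome, oxidative phosphorylation and proteasome genes had medians of -2.67, -1.95 and -3.18.

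Many groups had the opposite sign in the Erk experiment, where the median of all genes was itself -1.09. The dormant mRNA list had a median of 1.93 there, with 20 of 27 genes at least 2-fold higher and 3 at least 2-fold lower. The maternal effect list had a median of -1.70, with 33 of 49 genes at least 2-fold lower. Ribosome biogenesis (-2.01), egg activation (-1.27), gap junction (-1.28), zona pellucida (-1.58), storage (-1.24), spindle (-0.31), cohesin (-0.38) and replication genes (-0.48) also had negative medians there, against positive ones in the Btg4 experiment. The spindle, cohesin and replication medians nevertheless lay above the median of all genes in both experiments. *Plat* had 3374 FPKM in the Erk-experiment MII library and 400 FPKM in its GV library. *Btg4* had 2987 FPKM at MII and 216 FPKM at GV there, and *Mos* had 919 FPKM and 332 FPKM. *Npm2* had 27.04 FPKM at MII and 1372 FPKM at GV. Each of these 4 genes went the other way in the 2 replicates of the Btg4 experiment. With 1 library a stage the difference between experiments has no test. The 2 sets of libraries also differed in content. *Rn45s* took 0.026% of the summed FPKM in the Erk-experiment GV library and 0.16% in its MII library. In the wild-type Btg4-experiment libraries it took 2.17% to 5.87%. Estimated depth was 9750000 (GV) and 10800000 (MII) fragments in the Erk experiment, where 9253 and 7265 symbols reached 1 FPKM. The part of these differences in the opposite signs was not tested. The labels give no batch or date for either set of libraries.

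**Figure D4:**
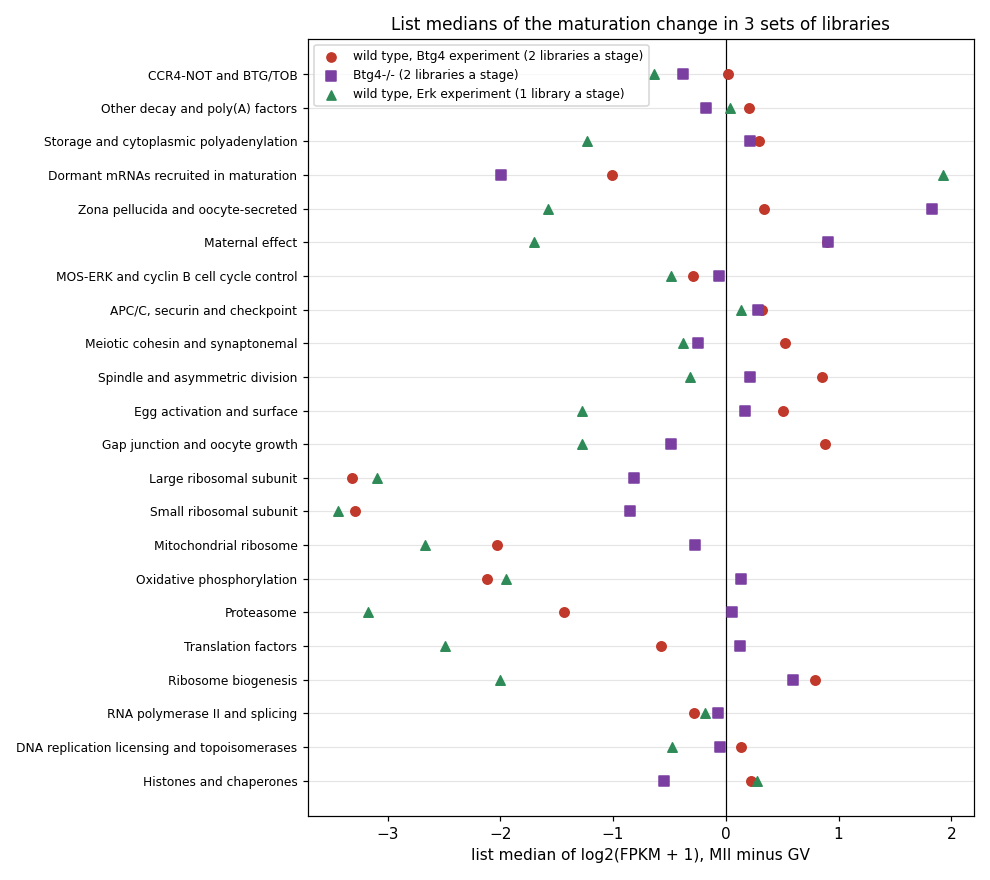
Median change of each gene group, as log2(FPKM + 1) at MII minus GV, in wild-type oocytes of the Btg4 experiment (red circles, 2 libraries a stage), Btg4-/- oocytes (purple squares, 2 libraries a stage) and wild-type oocytes of the Erk experiment (green triangles, 1 library a stage, genes at 1 FPKM or more there). The dormant mRNA list stands at -1.01, -1.998 and 1.93 in this order, and the large ribosomal subunit at -3.31, -0.81 and -3.09. The median change of all genes was -0.07, 0.19 and -1.09 in this order.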

How the data were processed

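RNA-seq of pooled oocytes was analysed from the FPKM values that the authors deposited per library, which Cufflinks gives for 23813 loci with mm9 coordinates and an interval. Tools were CASAVA 1.8, TopHat and Cufflinks with mm9, per the submitters' processing notes; versions of TopHat and Cufflinks, the annotation release and how mRNA was purified are not stated in any source used here. Loci with the same symbol were summed (61 of the genes tested), and 34 genes tested carry the status LOWDATA and were kept. FPKM depends on transcript length and on what else a library holds. Depth estimates read the width of the deposited intervals as 4 SDs.

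Log2(FPKM + 1) values were fitted with limma 3.58.1 in R 4.3.3 as group means over the 16 libraries of the Btg4 experiment (8 groups of 2, 8 residual degrees of freedom), with a trend on mean level, two-sided tests and Benjamini-Hochberg adjustment over 10067 genes at a threshold of 0.05. The pseudocount of 1 understates changes of genes near 1 FPKM. The fit was tested on simulated data. The Erk experiment has 1 library a group and no test. Transcript lengths and 3′ untranslated regions come from GENCODE M21 (GRCm38), matched by symbol for 99.2% of genes. Members and gene lists were chosen with earlier results of these data known. Named genes are the 10 largest called rises and falls without overlap and averaging at least 20 FPKM in the higher group, each list's 2 largest called rises and falls, the 10 highest at each stage, and a set of oocyte genes chosen by name. Other list members are named where a sentence accounts for an exception or a subgroup, chosen after their values were seen. Alternatives were the pseudocount, the filter, TPM, median-of-ratios and quantile scaling, a length correction, the fit on 4 libraries, the replicate block and leaving out each library. Results for some list members are not reported here; these genes stay in the counts and medians.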

Additional observations from a re-analysis of the deposited data

Results flagged for a closer look

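The maturation change differed between Btg4-/- and wild-type oocytes for 5223 of 10067 genes (51.9%) by the test of the difference in limma, among them 95 of the 132 called genes of the naming rule (48 higher, 47 lower). These 132 genes were called on wild-type values that enter the difference, so their count is a description and no test. On the log2 scale, Btg4-/- minus wild type, the difference was 4.36 for *Colec12*, 3.39 for *Zp2*, 2.78 for *Zp3* and 4.97 for *Khdc3*. It was -3.06 for *Cnot6l*, -2.49 for *Tet3*, -2.43 for *Kit*, -3.94 for *Eif2s2* and -4.27 for *Top1*. *Colec12*, *Eif2s2* and *Top1* entered the named genes through their wild-type values, which also enter the difference. *Zp2* was at 693 and 654 FPKM in Btg4-/- MII libraries and 119 and 98.5 FPKM in Btg4-/- GV libraries.

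Of 127 genes of the naming rule that were called and reached 1 FPKM in the Erk experiment, 51 pointed one way in both replicates of the Btg4 experiment and the other way, by 2-fold or more, in the single wild-type pair of the Erk experiment; this difference between experiments was not tested. The 34 that did so by 4-fold or more have the following log2 changes at MII relative to GV in the Erk experiment.

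Among genes lower at MII in the Btg4 experiment, the change there was 3.78 for *Btg4*, 3.08 for *Cnot7*, 2.68 for *Cnot8*, 3.27 for *Dcp1a* and 2.45 for *Pan2*, of mRNA deadenylation and decapping. It was 3.07 for *Plat*, 2.92 for *Orc6*, 2.22 for *Ccnb1*, 2.41 for *Fbxo43* and 4.69 for *Tex12*, and for abundant oocyte transcripts it was 3.13 for *Bcl2l10*, 2.84 for *Rfpl4*, 2.25 for *Tcl1* and 3.98 for *Tcl1b3*.

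Among genes higher at MII in the Btg4 experiment, it was -5.89 for *Gnas*, -3.56 for *Eif2s2*, -2.61 for *Ubxn4*, -6.12 for *Ywhab* and -2.61 for *Arpc1b*, of the largest rises. For ribosome, proteasome and mitochondrial genes it was -5.31 for *Rpl4*, -4.97 for *Nop56*, -4.50 for *Nop58*, -3.73 for *Psma7*, -6.75 for *Psmc1*, -3.62 for *Psmd1* and -6.28 for *Ndufa10*. For maternal and oocyte genes it was -2.02 for *Bmp15*, -5.61 for *Npm2* and -3.0 for *Nlrp5*, and for the remaining genes -3.39 for *Cdc25b*, -2.11 for *Cnot4*, -2.90 for *Nap1l4*, -2.79 for *Ppp3ca* and -2.10 for *Smc1b*.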

How the results depend on the processing

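The counts of higher and lower genes stayed within 1.5 times under each alternative run, from 2434 higher and 2766 lower with a filter of 5 FPKM to 3739 higher (TPM scaling) and 3629 lower (median-of-ratios scaling). Leaving out each library gave 2650 to 2944 higher and 3058 to 3173 lower genes. TPM scaling moved the median of all genes to 0.23 and quantile normalization to 0.12, against -0.07 as deposited, and higher genes were then 55.7% and 53.7% of those called, against 47.3%. Replicate numbers did not pair the libraries (r = 0.07 between same-numbered MII and GV deviations), and with the replicate block 3181 genes were higher, 3555 lower and 5337 differed between genotypes. Of 148 named genes, 132 kept direction and call under all alternatives that tested them. The signs that turned belong to genes not called as deposited: *Ybx2* (0.178 with TPM scaling, 0.2198 with the length correction, 0.178 with quantile normalization, -0.306 to 0.0116 without 1 library), *Zp1* (0.251, 0.3597 and 0.299 under these settings, -0.188 to 0.0378 without 1 library), *Cpeb1* (-0.283 with the length correction, -0.0160 with median-of-ratios scaling, -0.0490 to 0.113 without 1 library), *Pabpc1l* (-0.0407 with the length correction, -0.0120 to 0.236 without 1 library), *Ythdf2* (0.117) and *Zfp36l2* (-0.234) with the length correction, and *Zp3* (-0.0040 to 0.112 without 1 library). *Cpeb1* and *Pabpc1l* passed as higher with TPM scaling (adjusted p = 0.0451 and 0.0207) and quantile normalization (0.0396 and 0.0222). The cause was not tested. Estimated depth was 3860000 to 6380000 fragments, which limits the precision of genes near 1 FPKM.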
